A study of Mus musculus with 9 samples.

Results

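Binding of the homeodomain transcription factors Hoxa13 and Hoxa11 was mapped around 3 genes for bone morphogenetic proteins, Bmp2, Bmp4 and Bmp7, in embryonic mouse limbs by chromatin immunoprecipitation and sequencing. The peaks described are those whose start lies in a fixed window of the mouse build mm9. The windows run on chromosome 2 from 133100000 to 133650000 for Bmp2, on chromosome 14 from 46750000 to 47250000 for Bmp4, and on chromosome 2 from 172450000 to 173000000 for Bmp7. They hold 124 of the 243649 peaks in the 5 deposited lists, of which 67 lie in the Bmp2 window, 41 in the Bmp4 window and 16 in the Bmp7 window. The windows were set by position and not by a measured value, though with earlier results of these data known. The positions of the genes themselves in mm9 were not used here, so no peak was placed at a promoter, an intron or a known enhancer.

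All embryos were wild-type mice of the ICR strain, and both antibodies were home-made. For Hoxa13 there is 1 library each of pooled autopods (the hand and foot region) of embryonic day 11.0 (E11.0), of a litter's whole limb buds at E11.5, and of E12.5 limb buds. For Hoxa11 there are 2 replicate libraries of E11.5 limb buds. No list of the 4 input DNA libraries was analysed here. The E12.5 library was made by another protocol than the rest, so stage, tissue and protocol cannot be told apart. Whole limb buds also hold cells without either protein, and fewer bound cells and weaker binding per cell cannot be told apart in a peak list.

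Bone morphogenetic proteins are secreted ligands that bind paired type I and type II receptor kinases, which phosphorylate Smad proteins that then act in the nucleus. In the limb, Bmp2, Bmp4 and Bmp7 are made in the apical ectodermal ridge and in the mesenchyme, where they act in digit patterning, cartilage formation and the death of the cells between the digits. Hoxa13 is needed for the hand and foot and has been linked to Bmp2 and Bmp7 expression in the mouse autopod. Hoxa11 acts in the forearm and lower leg. In the order of protein-coding genes in the RefSeq annotation of GRCm38.p6, Bmp2 lies between Fermt1 and Hao1, Bmp4 between Ddhd1 and Cdkn3, and Bmp7 between Tfap2c and Spo11.

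Hoxa13 peaks were most numerous in the Bmp2 window and least numerous in the Bmp7 window at each of the 3 stages. The Bmp2 window held 7 E11.0 peaks of Hoxa13, 41 E11.5 peaks and 13 E12.5 peaks. The Bmp4 window, which is shorter, held 4, 28 and 8 at the same stages, and the Bmp7 window held 2, 9 and 1. Per Mb, E11.5 peaks came to 74.5 around Bmp2, 56.0 around Bmp4 and 16.4 around Bmp7. The Bmp2 and Bmp7 windows are both 550 kb long and on the same chromosome, so their counts can be set side by side without rescaling.

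Windows of the same length were laid end to end along chromosomes 1 to 19 and X. Against their median, Bmp2 and Bmp4 lay above at E11.5 and E12.5, and Bmp7 below. At E11.0 each of the loci lay below the median. At E11.5, the Bmp2 window held 41 Hoxa13 peaks and the Bmp7 window 9, against a median of 28 over 4676 genome windows of 550 kb, with quartiles of 18 and 40. Bmp2 was thus just above the upper quartile and Bmp7 below the lower. At E12.5 there were 13 peaks for Bmp2 and 1 for Bmp7, against a genome median of 8 with quartiles of 5 and 13. At E11.0 there were 7 for Bmp2 and 2 for Bmp7, against a median of 9 with quartiles of 5 and 14. The Bmp4 window, with 4, 28 and 8 peaks by stage, lay between the quartiles or on the lower one, against medians of 8, 26 and 7 over 5147 genome windows of 500 kb. With 1 library per stage and peaks that are not replicates, no test was made of these counts.

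**Figure D1:**
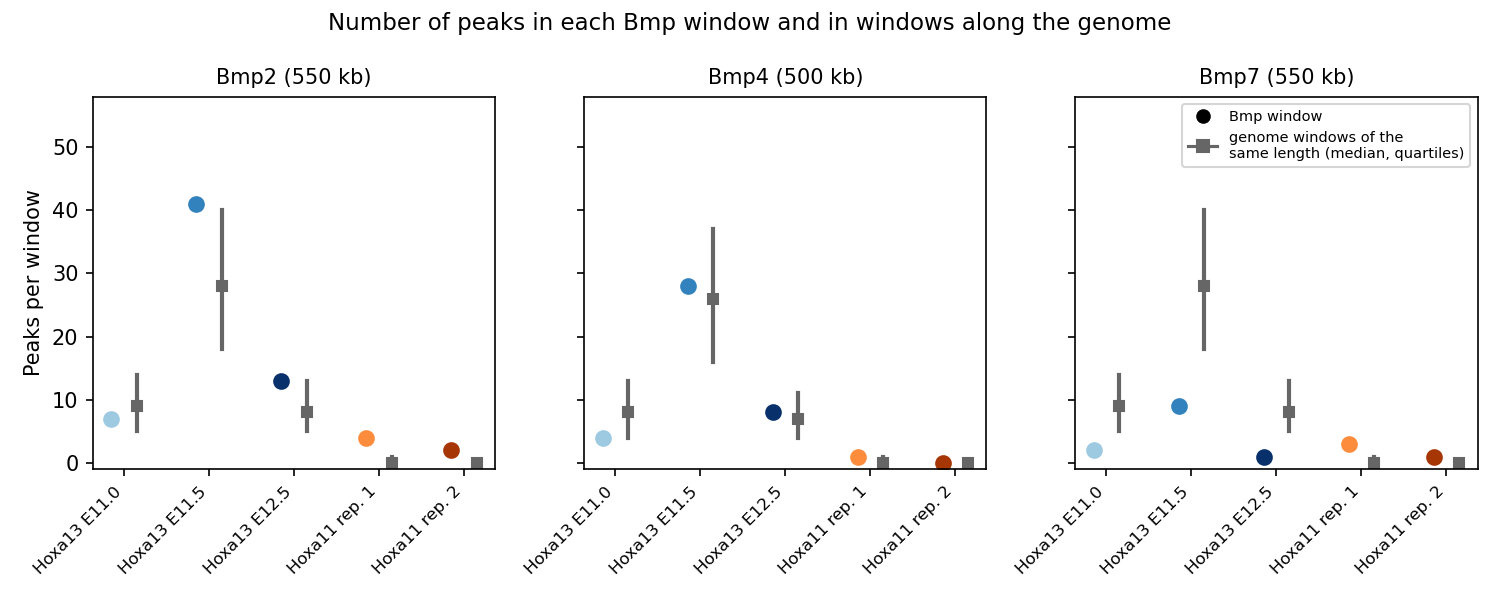
Peaks per window (vertical axis) in each of the 5 lists for the Bmp2, Bmp4 and Bmp7 windows (circles), beside the median (squares) and the quartiles (bars) of windows of the same length along the genome. The Bmp2 window lay at or above the upper quartile for Hoxa13 at E11.5 and E12.5, and the Bmp7 window lay below the lower quartile at every stage of the full lists. For Hoxa13 at E11.0 each window lay below the median.

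The Hoxa13 lists differ in length, and the E11.5 list holds 143460 peaks where the E11.0 list holds 50890 and the E12.5 list 44699. With each Hoxa13 list cut to its widest 44699 peaks, E11.5 kept 15 peaks at Bmp2, 12 at Bmp4 and 4 at Bmp7. At that length the genome windows had a median of 8 E11.5 peaks at either window size, with a lower quartile of 4 and upper quartiles of 13 for 550 kb and 12 for 500 kb. Bmp2 was then above the upper quartile at E11.5, Bmp4 on the upper and Bmp7 on the lower. E11.0 kept 6, 4 and 2 peaks, and E12.5 is the list that sets the length, so its counts stay as they were. The order Bmp2, Bmp4, Bmp7 therefore held at all 3 stages at one list length.

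Early autopod peaks made up a smaller part of the pooled Bmp windows than of the whole lists. Over the 3 windows together there were 13 E11.0 and 78 E11.5 peaks, so E11.0 gave 14.3% of the 91 (exact Clopper-Pearson 95% interval 7.83 to 23.2). Over the whole lists, E11.0 gave 26.2% of the peaks of both stages. At one list length there were 12 E11.0 and 31 E11.5 peaks, 27.9% (15.3 to 43.7), against 50% by construction in the whole lists. For E12.5 against E11.5, the share in the windows was 22.0% of 100 peaks (14.3 to 31.4) and 23.8% in the whole lists. At one list length there were 22 E12.5 and 31 E11.5 peaks, 41.5% (28.1 to 55.9), against 50% by construction. The E12.5 share was thus also lower at that length, with an interval that contains 50%. The differences were not tested. The intervals cover counting error over peaks only, and E11.0 differs from E11.5 in tissue as well as stage.

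To follow places rather than peaks, peaks of the 5 lists that shared at least 1 bp were merged into sites. The windows held 91 sites, of which 47 were at Bmp2, 32 at Bmp4 and 12 at Bmp7, and 88 of them had Hoxa13 at some stage. There was 1 site per 11.7 kb in the Bmp2 window, per 15.6 kb in the Bmp4 window and per 45.8 kb in the Bmp7 window. The most frequent kind was Hoxa13 at E11.5 alone, with 30 sites at Bmp2, 20 at Bmp4 and 7 at Bmp7. These 57 sites were 62.6% of all sites in the windows, and the same kind was 54.4% of the sites of the whole series.

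**Figure D2:**
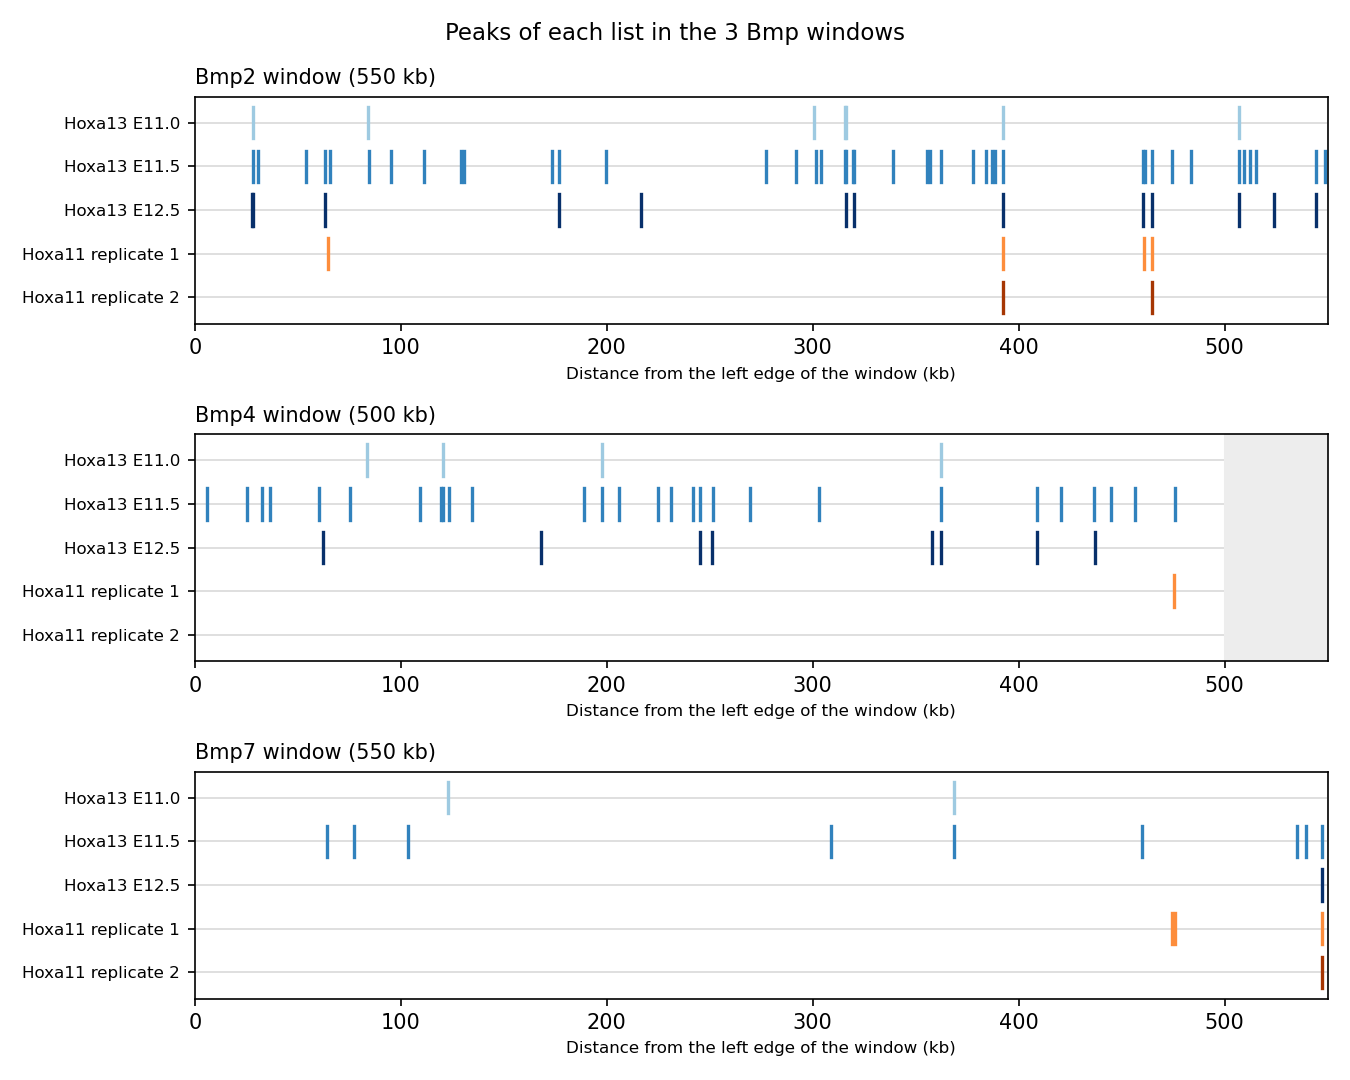
Position of every peak of the 5 lists in the 3 windows, as the distance from the left edge of the window (horizontal axis, kb); each tick is 1 peak, not drawn to its width, and the grey block marks the end of the shorter Bmp4 window. Hoxa11 peaks of both replicates line up with Hoxa13 peaks at 2 places in the Bmp2 window and at 1 place near the right edge of the Bmp7 window.

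In the Bmp2 window, Hoxa13 occupied 4 sites at all 3 stages. The first, from 133128041 to 133128506, had peaks of 280 bp at E11.0, 466 bp at E11.5 and 220 bp at E12.5, and the E12.5 peak lay wholly inside the others. The second, from 133415741 to 133416145, had peaks of 264, 405 and 175 bp at the same stages, with 154 bp common to all. The third, from 133492273 to 133492950, had the widest E11.0 and E12.5 peaks of the window, 500 and 365 bp, with 578 bp at E11.5. The fourth, from 133606826 to 133607270, was narrow at E11.0 (193 bp) and E12.5 (111 bp) and 445 bp wide at E11.5. Under a reciprocal overlap of 50%, 1 Bmp2 site of all stages was counted in place of 4.

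By count, the Bmp2 sites were unevenly spread, which was not tested. The right part of the window, beyond its midpoint, held 30 sites, and the left part held 17. Of the sites with Hoxa13 at 2 or 3 stages, 8 lay on the right and 3 on the left, and of the 4 sites with Hoxa11, 3 lay on the right. The highest number of sites within 50 kb was 9, reached by 2 overlapping stretches, from 133377241 to 133420153 and from 133392037 to 133439315, each with 3 sites of more than 1 list. Both include the second recurrent site and, beside it, a site from 133416172 to 133416587 with peaks of 373 bp at both E11.0 and E11.5. The longest stretch without a peak of any list, 67.4 kb, ran from 133492951 to 133560315, between the third recurrent site and a pair of Hoxa11 sites, and the next, 60.6 kb, from 133316618 to 133377240.

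Hoxa13 peaks at E11.5 and E12.5, with none in the E11.0 list, were found at 6 further Bmp2 sites. Of these, 2 also held Hoxa11, from 133560316 to 133560836 and from 133564530 to 133565134. The other 4, out of 47 sites in the window, began at 133163104, 133276629, 133419857 and 133644125. Sites of these 2 lists only made up 9.33% of the sites of the whole series. E12.5 peaks with no partner numbered 3, with widths from 110 to 167 bp, and E11.0 peaks with no partner numbered 2, with widths of 187 and 198 bp. Over the whole series, 6.14% of sites held E12.5 Hoxa13 alone and 10.9% held E11.0 Hoxa13 alone. The widest E11.5 peak of the window, 610 bp from 133165423 to 133166032, met no peak of another list, and it was wider than 97.2% of its list.

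The Bmp4 window had a single site with Hoxa13 at all 3 stages. It ran on chromosome 14 from 47112226 to 47112637, with peaks of 338 bp at E11.0, 384 bp at E11.5 and 195 bp at E12.5, and the E12.5 peak lay inside the other two. The E11.0 peak was the widest of that stage in the window. A further 4 of the 32 sites had E11.5 and E12.5 peaks, beginning at 46995087, 47001262, 47158941 and 47186612. E11.0 and E11.5 peaks met at 2 sites, from 46870176 to 46870535 and from 46947458 to 46947975. Of the sites of the whole series, 9.33% held Hoxa13 at E11.5 and E12.5 only, and 8.76% at E11.0 and E11.5 only. Of the E11.0 peaks, 3 lay in the left part of the window and 1 in the right, and of the E12.5 peaks, 3 lay in the left part and 5 in the right.

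Bmp4 sites were most frequent in the left part, with 21 of 32, and the highest number within 50 kb was 6 sites, reached by 4 stretches. One ran from 46825435 to 46873812, and the other 3 overlapped each other between 46947458 and 47019663. The widest Hoxa13 peaks of the window were found at E11.5 from 46782463 to 46783130 (668 bp, wider than 98.2% of its list) and at E12.5 from 46812269 to 46812495 (227 bp), and neither met a peak of another list. The longest stretch without a peak, 54.5 kb, ran from 47053180 to 47107652, and the next, 46.3 kb, began on the other side of the site of all stages, at 47112638.

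The Bmp7 window had no site with Hoxa13 at all 3 stages. Its 9 E11.5 peaks included 7 at sites of that list alone. Over the whole list, 96662 of 143460 E11.5 peaks met no other Hoxa13 stage. An E11.0 peak met an E11.5 peak at 1 site, from 172818707 to 172819034, where the widths were 294 and 325 bp. The other E11.0 peak, from 172572613 to 172572903, had no partner. The only E12.5 peak, 140 bp from 172997147 to 172997286, met E11.5 Hoxa13 and both Hoxa11 replicates. A stretch of 185.9 kb without a peak of any list, from 172572904 to 172758842, separated the left group of sites from the rest, and a further 90.7 kb from 172819035 to 172909782 had none. No 50 kb held more than 3 sites, a number reached by 4 stretches, of which the most compact were the 12.75 kb from 172984653 to 172997400, with the site of both Hoxa11 replicates, and the 16.4 kb from 172909783 to 172926183. The widest E11.5 peak of all 3 windows lay here, 847 bp from 172984653 to 172985499, wider than 99.5% of its list, and it met no other list.

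The next comparison asked how many Hoxa13 peaks of the Bmp windows were met by a peak of another stage. At E12.5, 16 of 22 peaks met an E11.5 peak, 72.7% (exact interval 49.8 to 89.3), against 70.7% of the whole E12.5 list. At E11.0, 9 of 13 peaks met E11.5, 69.2% (38.6 to 90.9), against 58.1% of the list, and 5 of 13 met E12.5, 38.5% (13.9 to 68.4), against 30.7%. Of the E12.5 peaks, 5 met E11.0, 22.7% (7.82 to 45.4), against 35.6%. Each of these intervals contains the share of the whole list, so a difference was not detectable with so few peaks.

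From the side of E11.5, 16 of 78 peaks met E12.5, 20.5% (12.2 to 31.2), against 21.7% of the list. E11.0 was met by 9 of 78, 11.54% (5.41 to 20.8), against 20.5% of the list, close to the upper end of the interval. By locus, E11.5 peaks met E11.0 in 5 of 41 cases at Bmp2, 3 of 28 at Bmp4 and 1 of 9 at Bmp7, and met E12.5 in 10, 5 and 1 cases. With lists cut to the same number of peaks, E11.0 was met by 8 of 31 E11.5 peaks, 25.8% (11.9 to 44.6), against 35.7% of the shortened list, and 10 of 22 E12.5 peaks met E11.5, 45.5% (24.4 to 67.8), against 43.2%. With 50% of both peaks required to overlap, 36.4% of E12.5 peaks (17.2 to 59.3) met E11.5, against 29.6%.

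**Figure D3:**
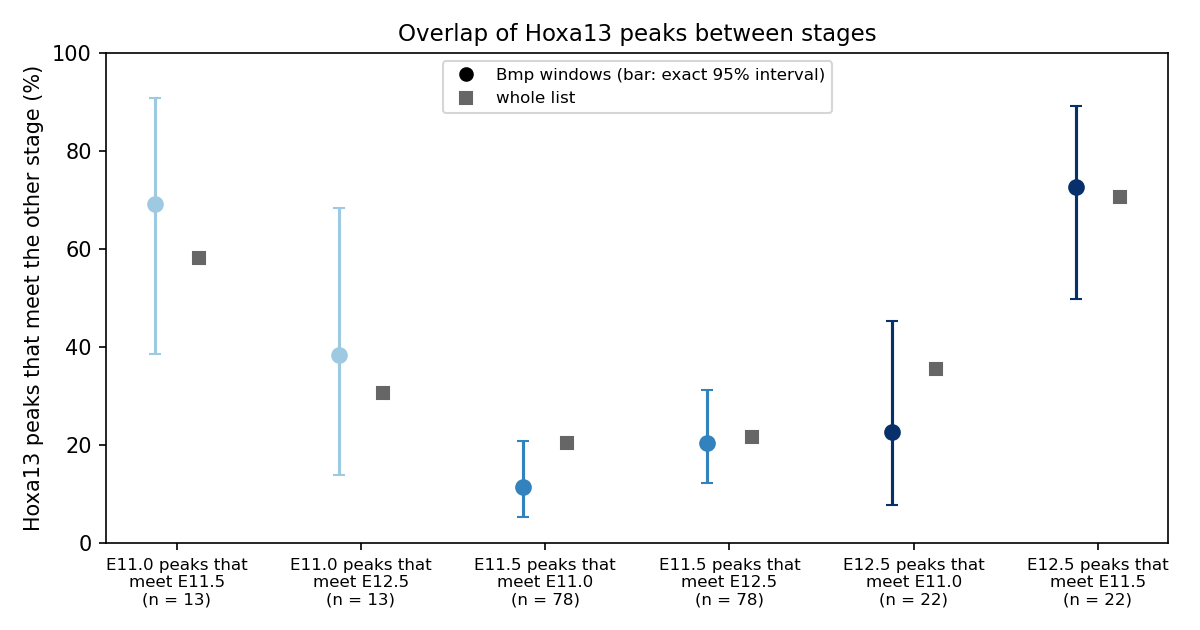
Share of Hoxa13 peaks in the Bmp windows that meet a peak of another stage by at least 1 bp (vertical axis, percent; circles with exact 95% intervals; n is the number of peaks in the windows), beside the share over the whole list (squares). Each interval contains its whole-list share, and the largest gap relative to the interval is that of E11.5 peaks that meet E11.0, 11.54% in the windows against 20.5%.

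Counted over sites, 5 of 88 Bmp sites with Hoxa13 held all 3 stages, 5.68% (1.87 to 12.8), against 7.85% of the 175452 such sites of the whole series. At least 2 stages were held by 20 of 88, 22.7% (14.5 to 32.9), against 27.7%. The Bmp2 window had 4 of 46 sites at all stages and 11 of 46 at 2 or more, Bmp4 had 1 of 32 and 7 of 32, and Bmp7 had 0 of 10 and 2 of 10. Peaks of a shared site overlap by definition, which by itself keeps their midpoints close, and no expected spread was computed. Over 21 sites of more than 1 list, the midpoints of the peaks lay within a median of 51 bp of each other, and the range was 5 to 319 bp.

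Hoxa11 had 8 peaks in replicate 1 and 3 in replicate 2 in the Bmp windows. The Bmp2 window held 4 replicate 1 peaks and 2 replicate 2 peaks, the Bmp4 window 1 and 0, and the Bmp7 window 3 and 1. The median genome window of either length held 0 peaks of each replicate, and the upper quartiles were 1 and 0. All 3 replicate 2 peaks met a replicate 1 peak, against 64.6% of the whole replicate 2 list, and 3 of 8 replicate 1 peaks met replicate 2, 37.5% (8.52 to 75.5), against 35.8%. Sites of both replicates therefore numbered 2 at Bmp2, 0 at Bmp4 and 1 at Bmp7. Among genome windows of 550 kb, 14.8% held at least 1 such site and 3.23% at least 2, and of windows of 500 kb 13.9% held at least 1.

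**Figure D4:**
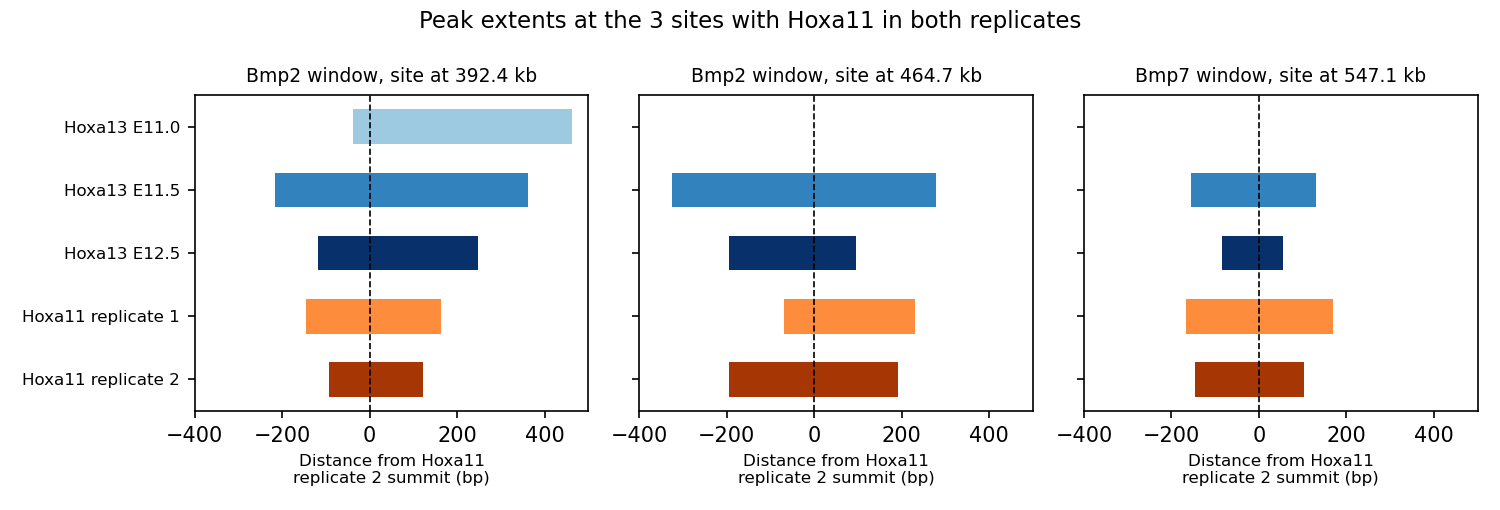
Extent of each peak at the 3 sites with Hoxa11 in both replicates, as the distance from the summit of the Hoxa11 replicate 2 peak (horizontal axis, bp; dashed line at the summit); titles give the distance of the replicate 2 peak from the left edge of its window. Hoxa13 at E11.5 and E12.5 covers the summit at each site, and Hoxa13 at E11.0 only at the first.

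The first Bmp2 site with Hoxa11 in both replicates, from 133492273 to 133492950, was the only one in the 3 windows with a peak in all 5 lists, and 161 bp from 133492451 to 133492611 were common to them. Replicate 1 gave a peak of 309 bp and replicate 2 a peak of 215 bp, with its summit at 133492489. In the deposited list the authors' fold enrichment of the replicate 2 peak was 4.45 and its −log10 q-value 8.48, rank 653 of 1647 by score. The summit was 8.5 bp from the midpoint of the replicate 1 peak and 65.5 bp from that of the E12.5 Hoxa13 peak, and 212 bp from that of the E11.0 peak, which reached further to the right. All 3 Hoxa13 peaks here were among the wider ones of their lists, wider than 96.96% of the E11.0 list, 96.6% of the E11.5 list and 96.7% of the E12.5 list.

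The other replicated Bmp2 site, from 133564530 to 133565134, lacked E11.0 Hoxa13, whose nearest peak was 41817 bp from the replicate 2 peak, and had Hoxa13 peaks of both later stages. Replicate 1 gave 301 bp and replicate 2 gave 387 bp, with a fold enrichment of 5.92 and a −log10 q-value of 14.6, rank 298 by score. The summit, at 133564856, was 23.5 bp from the midpoint of the 605 bp E11.5 Hoxa13 peak and 49.5 bp from that of the 291 bp E12.5 peak. At 3823 bp to the left of the replicate 2 peak lay a site of replicate 1 only, from 133560316 to 133560836, with a 369 bp Hoxa11 peak and Hoxa13 peaks of 514 bp at E11.5 and 298 bp at E12.5. The remaining Hoxa11 peak of the window, and the leftmost, 373 bp of replicate 1 from 133164370 to 133164742, met no Hoxa13 peak. It lay between the site that begins at 133163104, whose E12.5 peak was 942 bp away, and the unpartnered 610 bp E11.5 peak, 680 bp away.

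The replicated Bmp7 site, from 172997066 to 172997400, likewise had Hoxa13 of both later stages and none of E11.0. The Hoxa11 peaks were 335 bp in replicate 1 and 249 bp in replicate 2, and the Hoxa13 peaks 286 bp at E11.5 and 140 bp at E12.5. The replicate 2 peak had a fold enrichment of 4.12, the lowest of the 3 replicate 2 peaks of the windows. Its −log10 q-value was 17.6, rank 213 by score, the highest rank of those peaks. Replicate 1 peaks have no score. All 4 midpoints fell within 24 bp, and the summit at 172997232 was 12 bp from the midpoint of the E11.5 Hoxa13 peak. The nearest E11.0 Hoxa13 peak lay 6832 bp from the replicate 1 peak, outside the window. For comparison, the median fold enrichment of the whole replicate 2 list was 3.90 and its median −log10 q-value 7.10.

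The remaining Bmp7 peaks of Hoxa11 were a pair in replicate 1 alone, 937 bp from 172924215 to 172925151 and 257 bp from 172925927 to 172926183. The first was wider than 97.3% of its list. Neither met Hoxa13 at any stage, and the nearest E11.5 Hoxa13 peaks were 14.1 and 15.8 kb away. The 1 Hoxa11 peak of the Bmp4 window, 394 bp of replicate 1 from 47225227 to 47225620, shared only 68 bp with an E11.5 Hoxa13 peak of 380 bp, and their midpoints were 319 bp apart, the widest spread of any shared site in the windows.

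All 3 replicated Hoxa11 sites met E11.5 Hoxa13, as did 79.2% of the 1023 such sites of the whole series, and all 3 met E12.5 Hoxa13, as did 64.7%. E11.0 Hoxa13 was met by 1 of 3, against 30.6%. With 3 sites the exact intervals run from 29.2 to 100% and from 0.840 to 90.6%, so no difference was detectable. With the E11.5 list cut to its widest 44699 peaks, 2 of the 3 sites met it, against 66.0% of the 1023, and the Bmp7 site lost its partner of 286 bp. Of single peaks, 5 of 8 in replicate 1 and 3 of 3 in replicate 2 met Hoxa13 at E11.5, against 71% and 70.8% of the whole lists. By its title, the input library of Hoxa11 replicate 1 also served Hoxa13 at E11.5, and the part of a shared input in these overlaps was not tested. Replicate 2 has an input of its own, but its 3 peaks are those of the 3 replicated sites and add no further sites.

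Hoxa13 peaks that met another stage were wider than those that did not. At E11.5, the 20 recurrent peaks in the windows had a median width of 361.5 bp (207 to 605) and the 58 others 284 bp (203 to 847), against 341 and 267 bp over the whole list. At E11.0 the medians were 294 bp over 9 recurrent and 196.5 bp over 4 other peaks, against 262 and 224 bp over the whole list. At E12.5 they were 181 bp over 16 and 121.5 bp over 6, against 163 and 135 bp. The ranges overlapped at each stage, and a wider peak is more easily met by another, so this is a description of the lists. The smallest width of the list was held by 1 of 13 window peaks at E11.0 (187 bp), 7.69% against 13.4% of the whole list. At E11.5 (203 bp) it was held by 3 of 78, 3.85% against 3.28%, and at E12.5 (110 bp) by 3 of 22, 13.6% against 8.63%. No Hoxa11 peak of the windows had it.

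Several members lie close to the limits of the windows. On the right of Bmp7, the E12.5 peak of the replicated Hoxa11 site starts 2.85 kb inside the edge, and the next peak outside, 187 bp of E11.0 Hoxa13, starts 4.23 kb beyond it. On the left of Bmp7, an E11.5 peak of 345 bp starts 0.309 kb outside, and the first inside is 64.3 kb from the edge. At Bmp2, an E11.0 peak of 394 bp starts 1.33 kb outside on the left, and the last E11.5 peak, 203 bp, starts 1.10 kb inside on the right. At Bmp4 the nearest peaks start 9.19 kb outside on either side, and 5.86 kb and 24.4 kb inside. With the windows trimmed by 50 kb at each end, Bmp7 lost its replicated Hoxa11 site and its only E12.5 peak, and Bmp4 lost its Hoxa11 peak.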

How the data were processed

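Each deposited list belongs to 1 library. The build mm9 and the tools MACS2 2.1.0, Bowtie2 2.2.2 and CASAVA 1.4 are named in the submitters' processing notes; roles, thresholds and use of the input are not given in the sources used here. The authors deposited 4 lists with positions only. Hoxa11 replicate 2 also has, as deposited, a score (the −log10 q-value times 10, without decimals), a fold enrichment ratio, −log10 p- and q-values and a summit. Read depth is unknown.

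Peaks were taken by their start, and positions are printed counted from 1. Overlap meant at least 1 bp. Genome windows started at the first peak of each chromosome. Shares have exact Clopper-Pearson intervals at 95%, from SciPy 1.17.1 in Python 3.11.15, and no test between groups was made. Overlap counting was tested on simulated peaks. Members, windows and lists were chosen with earlier results of these data known. Named sites are all with Hoxa11, all with Hoxa13 at 3 stages, the widest peak of each list per window and the 50 kb richest in sites; others were named after their values were seen. Other BMP pathway genes and motifs were not examined, as no genome or annotation of mm9 was used here.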

Additional observations from a re-analysis of the deposited data

How the results depend on the processing

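Over 28 counts and shares, 59 values under other settings stayed within 1.5 times the reported count or within its exact interval, and 17 did not. Intervals over few peaks are wide, so a share can change much and still count as staying. For the 3 replicated Hoxa11 sites the interval is 29.2 to 100%, and a fall from 100% to 66.7% counted so. The tally is therefore no measure of stability. Assigning peaks by midpoint (15 values), or asking for a −log10 q-value of at least 5 in replicate 2 (3 values), moved none, but neither had a member to move. The peak that starts nearest to an edge, 0.309 kb outside Bmp7, also has its midpoint outside. The lowest −log10 q-value of the replicate 2 peaks in the windows is 8.48. At one list length the E11.5 counts were 15, 12 and 4 at Bmp2, Bmp4 and Bmp7, E11.5 peaks met E11.0 in 25.8% and E12.5 in 32.3% of cases, E12.5 peaks met E11.5 in 45.5%, and 66.7% of the replicated Hoxa11 sites met Hoxa13 at E11.5 (2 of 3). Windows trimmed by 50 kb at each end left 8 E12.5 peaks and 2 sites of all stages at Bmp2, no Hoxa11 replicate 1 peak at Bmp4 (0), and neither an E12.5 nor a Hoxa11 replicate 2 peak at Bmp7 (0 each). With 50% reciprocal overlap, 1 Bmp2 site of all stages was counted, E11.5 peaks met E12.5 in 10.3% of cases and E12.5 peaks met E11.5 in 36.4%; narrower E12.5 peaks meet this rule less easily by its construction. Using either Hoxa11 replicate alone gave 2 to 4 sites at Bmp2, 0 to 1 at Bmp4 and 1 to 3 at Bmp7, the higher values without replicate 2, and 62.5 to 100% of them met Hoxa13 at E11.5. No paired analysis was possible because only Hoxa11 has more than 1 library. The small numbers of peaks and the unknown read depth limit every share given here.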
